A study of Mus musculus with 8 samples.

Results

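Transcription factors of neural stem cells and astroglia were described as a set of 10 genes in the ventral hippocampus of adult mice given corticosterone, the main glucocorticoid of rodents. The set comprised *Sox2*, *Sox9*, *Sall1* and *Nr2e1*, taken because they were lower after corticosterone in these same libraries, and *Sox1*, *Sox8*, *Sox21*, *Nfia*, *Nfib* and *Pax6*, taken as related glial and progenitor factors. All 10 were found among the 50686 genes of the count table, by matching their symbols to Ensembl identifiers in the GENCODE M21 annotation of GRCm38, and all 10 passed the filter on low counts. For the first 4 genes, the comparison between the groups is therefore a description without a test. The animals were male C57B6/J mice, described as 8 weeks old and housed in groups in the methods of the study, and each library came from 1 mouse. A vehicle injection was given to 4 mice (libraries 1 to 4) and 3 mg/kg corticosterone to the other 4 (libraries 5 to 8), and the tissue was collected 3 h later. The labels name no transgene or deletion in either group. Whole ventral hippocampus was sequenced, and in such bulk tissue fewer cells of a type and less RNA per cell cannot be told apart.

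The SOX proteins bind DNA through a high mobility group domain. SOX1 and SOX2 keep neural progenitors undifferentiated, SOX21 counteracts them, and SOX8 and SOX9 belong to another subgroup that acts in glia. NFIA and NFIB are nuclear factor I proteins that start gliogenesis during development, often downstream of SOX9. NR2E1, also called TLX, is an orphan nuclear receptor that maintains stem cells of the adult brain, and PAX6 is a paired box factor of radial glia. SALL1 is a zinc finger protein that in the adult brain maintains the identity of microglia. In the adult hippocampus, *Sox2* and *Sox9* are found in stem cells of the dentate gyrus and in most astrocytes.

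Promoter sequences were examined because *Sox2*, *Sall1* and *Nr2e1* were lower in the same mice. Promoter windows from RefSeq (GRCm38.p6) were used for 8 of the 10 genes, with 11 windows in all. Those of *Sox9* and *Nfib* were not analysed here. The 250 bases upstream of the start were searched on both strands for 3 glucocorticoid receptor elements, namely the palindromic response element (AGAACA and TGTTCT with any 3 bases between them), its arm AGAACA alone, and the negative response element (CTCC and GGAGA with 0, 1 or 2 bases between them). The letters ACAAAG (a SOX motif), CCAAT (the CCAAT box) and GGGCGG (the GC box) were also searched. The most upstream window of the 3 lower genes and that of *Sox21* are shown 5′ to 3′ on the strand of the gene, with capitals that mark every match to the AGAACA arm, the SOX motif, the CCAAT box or the GC box on either strand. They lie at chr3:34649745-34649994 on the plus strand for *Sox2*, and on the minus strand at chr8:89044163-89044412 for *Sall1*, chr10:42583591-42583840 for *Nr2e1* and chr14:118237031-118237280 for *Sox21*.
Sox2: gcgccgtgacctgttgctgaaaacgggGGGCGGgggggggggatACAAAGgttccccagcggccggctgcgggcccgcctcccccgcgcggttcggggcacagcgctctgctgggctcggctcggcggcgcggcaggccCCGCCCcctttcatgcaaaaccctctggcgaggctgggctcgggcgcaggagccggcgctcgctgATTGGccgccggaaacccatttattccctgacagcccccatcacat
Sall1: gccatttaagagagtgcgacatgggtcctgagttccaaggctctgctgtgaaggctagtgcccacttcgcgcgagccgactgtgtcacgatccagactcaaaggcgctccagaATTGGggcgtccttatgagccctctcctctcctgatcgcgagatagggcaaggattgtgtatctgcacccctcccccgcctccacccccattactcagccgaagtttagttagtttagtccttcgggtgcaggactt
Nr2e1: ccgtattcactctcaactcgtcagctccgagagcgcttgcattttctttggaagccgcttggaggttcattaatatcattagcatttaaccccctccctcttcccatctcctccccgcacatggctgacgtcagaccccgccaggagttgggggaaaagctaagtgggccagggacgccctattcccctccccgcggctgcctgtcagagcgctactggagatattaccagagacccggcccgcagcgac
Sox21: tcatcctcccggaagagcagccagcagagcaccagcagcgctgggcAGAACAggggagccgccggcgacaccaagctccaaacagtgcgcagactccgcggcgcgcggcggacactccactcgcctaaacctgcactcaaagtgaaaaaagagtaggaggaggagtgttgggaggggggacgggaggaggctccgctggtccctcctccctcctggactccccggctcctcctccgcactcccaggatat

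None of the 11 windows held the palindrome, which occurred in 3 of the 32851 promoters searched (0.00913%), and none held the negative element, which occurred in 1.38% of all promoters. The arm AGAACA was found once, in *Sox21*, between 204 and 199 bases upstream of the start, against 16.1% of all promoters. The *Sox2* window held ACAAAG (16.5% of all promoters), a CCAAT box (33.8%) and 2 matches to the GC box (32.7%). The *Sall1* window shown held a CCAAT box, and that of *Nr2e1* held none of these letters. G and C made up 72.0% of the window in *Sox2*, 71.2% in *Sox1*, 65.6% in *Sox8*, 65.2% in *Sox21*, 58.0% in *Nr2e1*, 56.4% to 78.4% in the 3 windows of *Sall1*, 47.6% and 60.8% in those of *Pax6* and 44.8% in *Nfia*, where the median promoter had 52.4%. The *Nfia* window (chr4:97581693-97581942, plus strand) lies outside the *Nfia* gene of GENCODE, which starts at 97772734. The sequence next to that start was not searched. These matches describe letters in short windows only, and receptor binding elsewhere was not examined.

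Between 17492159 and 19931987 reads per library were counted on genes, and 16018 genes passed the filter. Counts were normalized with TMM in edgeR and are given as normalized read counts at the mean library size. The treatment was visible in *Fkbp5*, a chaperone gene induced by glucocorticoids, which rose from 1957 ± 301 to 3309.6 ± 159 normalized counts (mean ± SD, n = 4 mice each). It was the only gene with an adjusted p value under 0.05 from edgeR's quasi-likelihood test (adjusted p = 0.0481; 0.00624% of the genes tested). No gene passed when vehicle 2, 3 or 4 or corticosterone 6, 7 or 8 was left out. Corticosterone 5 stood apart from libraries 6 to 8, with 1.48% of reads ambiguous between genes against 1.25% to 1.28%, and 6.45% of reads not aligned against 7.77% to 8.09%. Without it, 1651 genes passed the threshold (10.2%), and calls of the members and of the genes named below that change without it are given both ways. Reads without a unique alignment made up 0.0699% to 0.111% of the vehicle libraries and 0.0420% to 0.0536% after corticosterone, and the ranges were separate (exact permutation test, two-sided p = 0.0286, the smallest that 4 against 4 allow; 0.114 adjusted over 4 technical measures). The part of this difference in the results below was not tested.

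Within the vehicle group, the 10 genes spanned a wide range of levels per length, given here as CPM (counts scaled to the library size) per kilobase of exon. *Sox8*, at 11.2 ± 1.42 (SD, n = 4), *Sox2*, at 10.5 ± 1.93, and *Nfib*, at 9.12 ± 0.885, had the highest levels, and the ranges of neighbours in this order overlapped. The next 4 genes were *Sox9* at 5.18 ± 1.10, *Nfia* at 4.51 ± 0.851, *Nr2e1* at 4.32 ± 0.739 and *Sall1* at 3.71 ± 0.126, again with overlapping ranges between neighbours. *Sox1* (2.55 ± 0.268), *Sox21* (1.83 ± 0.285) and *Pax6* (0.673 ± 0.0931) followed, each with a range below that of the gene before it. *Sox8* was 16.7 times as high as *Pax6* per kilobase of merged exons. This ratio depends on the length used. The merged exons measure 11694 bases in *Pax6* and 3118 in *Sox8*, where the longest transcripts measure 4427 and 3000. Among the genes tested, *Sox8* stood at the 72.0th percentile per length and *Pax6* at the 15.2th. Without division by length, the order was led by *Nfib* (136 ± 13.2 CPM) and *Nfia* (49.1 ± 9.27 CPM), whose merged exons measure 14957 and 10891 bases. *Pax6* (7.87 ± 1.09 CPM) then stood above *Sox21* (6.93 ± 1.08 CPM), which was last.

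**Figure D1:**
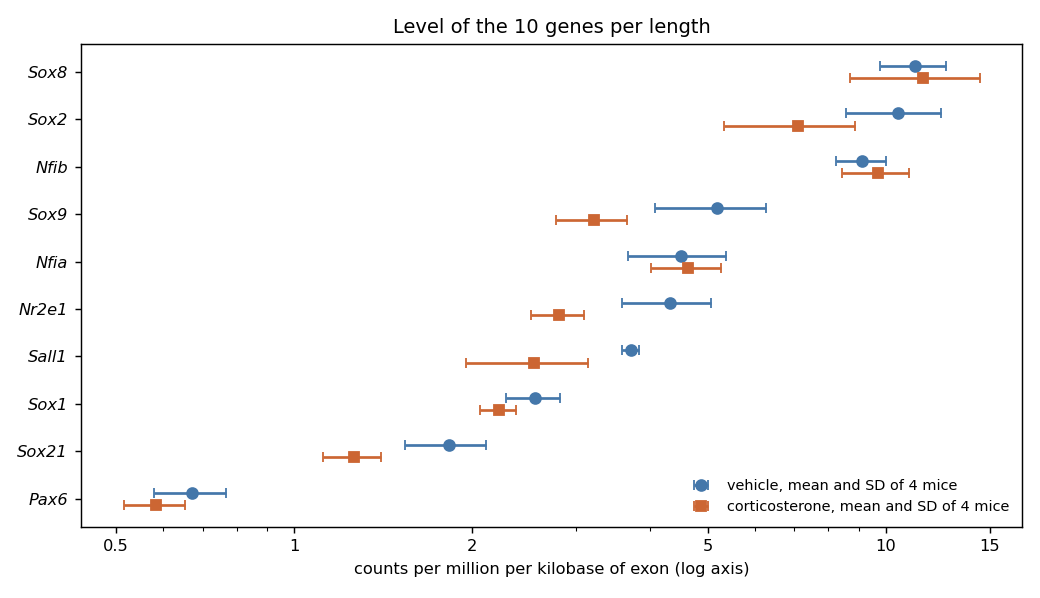
Level of the 10 genes in CPM per kilobase of exon (horizontal log axis), with the mean and SD of 4 vehicle mice (circles) and 4 corticosterone mice (squares). Levels in vehicle run from 0.673 for *Pax6* to 11.2 for *Sox8*.

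*Sox2* (ENSMUSG00000074637, chromosome 3 from 34650405 to 34652461, plus strand) encodes the progenitor factor SOX2. Its normalized counts were 302, 451, 468 and 434 in vehicle mice 1 to 4 and 384, 241, 239.6 and 254 in corticosterone mice 5 to 8. Mice 6 to 8 lay below every vehicle mouse, whereas mouse 5 lay within the vehicle range and vehicle mouse 1 was the lowest of its group. Of all genes tested, 12.4% likewise had mice 6 to 8 below every vehicle mouse. The mean was 414 ± 75.9 (SD, n = 4) after vehicle and 279.7 ± 69.9 after corticosterone, 32.4% lower, with a log2 fold change of -0.56 (standard error 0.17). Without corticosterone 5 the log2 fold change was -0.75.

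*Sox9* (ENSMUSG00000000567, chromosome 11 from 112782224 to 112787760, plus strand), whose product starts gliogenesis and marks astrocyte nuclei in the adult brain, was measured at a level close to that of *Sox2* in read counts. The vehicle mice had 313, 433, 518 and 376 normalized counts, and the corticosterone mice had 297, 230.0, 222 and 267. The groups did not overlap, although vehicle mouse 1 and corticosterone mouse 5 were close to each other. The means were 410.2 ± 87.1 and 254 ± 34.9, 38.1% lower after corticosterone, with a log2 fold change of -0.69 (standard error 0.15).

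*Sall1* (ENSMUSG00000031665, chromosome 8 from 89027235 to 89044162, minus strand), the microglial identity factor, was the most even gene of the set among vehicle mice. Its normalized counts were 356, 375, 384 and 380.1 after vehicle, a coefficient of variation of 3.41%, and 330.4, 245, 185 and 266 after corticosterone, one of 23.4%. All 4 corticosterone mice lay below all vehicle mice, with mouse 5 nearest to them and mouse 7 farthest. The means were 374 ± 12.8 and 257 ± 60.0, 31.3% lower, and the log2 fold change was -0.54 (standard error 0.14).

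*Nr2e1* (ENSMUSG00000019803, chromosome 10 from 42561963 to 42583632, minus strand), the stem cell receptor gene, had 243, 309, 307 and 371 normalized counts after vehicle and 176, 219, 188 and 212 after corticosterone. The groups did not overlap, and here corticosterone mouse 5 was the lowest of its group. The means were 307 ± 52.5 and 199 ± 20.1, 35.2% lower, with a log2 fold change of -0.63 (standard error 0.13). Of the 4 genes chosen on this contrast, *Nr2e1* was the only one whose difference was smaller without corticosterone 5 (-0.57). These 4 genes were chosen because they were lower, so that the non-overlap in 3 of them follows in part from the choice. Of all genes tested, 1.68% had every corticosterone value below every vehicle value, 1.99% had the reverse, and 3.66% had either.

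**Figure D2:**
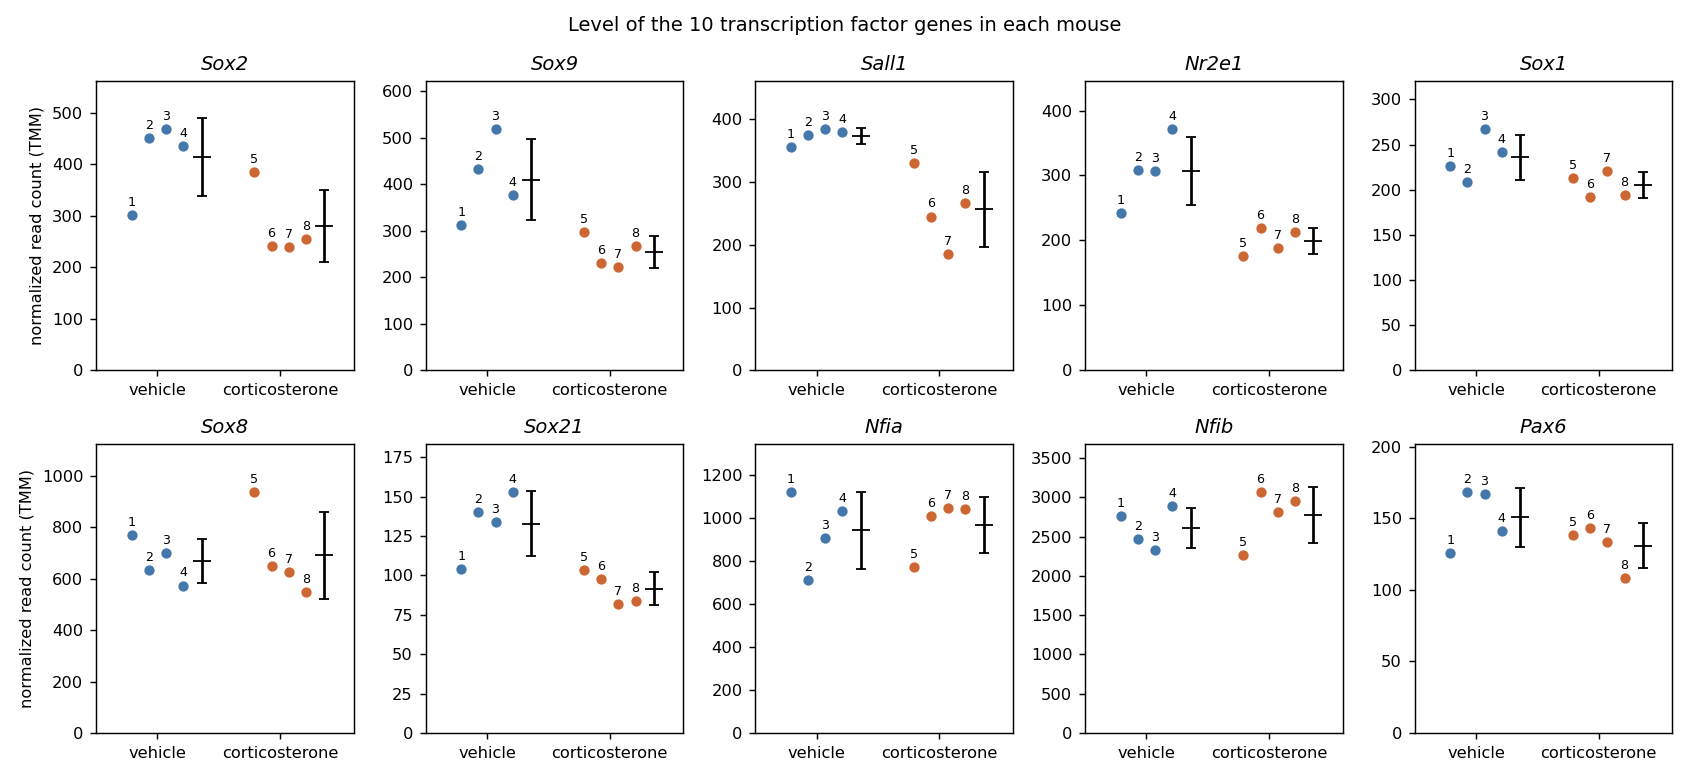
Normalized read counts (vertical axis, TMM, starting at 0) of the 10 genes in each mouse, numbered 1 to 4 for vehicle and 5 to 8 for corticosterone, with the mean and SD of each group beside the points. *Sox9*, *Sall1*, *Nr2e1* and *Sox21* show no overlap between groups, and corticosterone 5 lies near the vehicle mice in *Sox2*.

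Of the 6 related factors, which were not chosen on the contrast, 0 passed an adjusted p value of 0.05 in edgeR's quasi-likelihood test with Benjamini-Hochberg adjustment over 16018 genes. DESeq2, which called 0.119% of its genes lower and 0.256% higher (0.374% in all), and limma-voom also called 0 of them. At an unadjusted p value under 0.05 there was 1 of 6, *Sox21*, where 9.03% of all genes tested had such a value. Its groups did not overlap either, which held for 1 of the 6 factors in this direction and for 1.68% of all genes tested.

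*Sox21* (ENSMUSG00000061517, chromosome 14 from 118233232 to 118237030, minus strand) encodes the counterpart of SOX1 and SOX2. It had 104, 140.1, 134 and 153 normalized counts in vehicle mice and 103, 97.6, 82.0 and 83.8 in corticosterone mice. The lowest vehicle mouse, number 1, and the highest corticosterone mouse, number 5, were nearly equal. The means were 133 ± 20.7 (SD, n = 4) and 91.7 ± 10.4, and the log2 fold change was -0.53 (95% interval -0.86 to -0.21, p = 0.00353, adjusted p = 0.386 from edgeR; exact permutation test, two-sided p = 0.0286). Without corticosterone 5, its adjusted p value was 0.0347 with a log2 fold change of -0.60, and 6.47% of all genes tested were then called lower. On the opposite strand, *Gm4675* shares 713 exon bases with *Sox21*. The library was stranded but the strand setting of the counting is not given in the sources used here, and reads of the pair could not be separated if strand was not used. *Gm4675* itself had 5.9 to 8.8 normalized counts after vehicle and 3.3 to 5.8 after corticosterone, and was too low to be tested.

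*Sox1* (ENSMUSG00000096014, chromosome 8 from 12395295 to 12400126, plus strand), the closest relative of *Sox2* in the set and a marker of radial stem cells, had 226, 209, 267 and 242 normalized counts after vehicle and 213, 192, 221 and 194 after corticosterone. The groups overlapped, with all 4 corticosterone mice below the vehicle mean. Its log2 fold change was -0.20 (95% interval -0.44 to 0.04, adjusted p = 0.55 from edgeR; exact permutation p = 0.0857). *Pax6* (ENSMUSG00000027168, chromosome 2 from 105668900 to 105697364, plus strand) had 126, 168, 167 and 141 normalized counts after vehicle and 138, 143, 133 and 108 after corticosterone. Its groups overlapped as well, with a log2 fold change of -0.20 (95% interval -0.51 to 0.10, adjusted p = 0.605 from edgeR; exact permutation p = 0.229). Both intervals included 0.

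*Sox8* (ENSMUSG00000024176, chromosome 17 from 25565892 to 25570686, minus strand), a relative of *Sox9* that is also active in oligodendrocytes, had 771, 635, 699 and 574 normalized counts after vehicle and 938, 649.8, 625 and 549.5 after corticosterone. Corticosterone mouse 5 had the highest value of all 8 mice and mouse 8 the lowest. The log2 fold change was 0.04 (95% interval -0.28 to 0.37, adjusted p = 0.921 from edgeR; exact permutation p = 0.943) and changed sign to -0.14 without mouse 5. The 5′ end of *Sox8* shares 329 bases with *2810468N07Rik* on the opposite strand, a gene with 336 ± 60.9 normalized counts after vehicle and 311 ± 41.8 after corticosterone.

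The nuclear factor I genes lay slightly above vehicle on average. *Nfia* (ENSMUSG00000028565, chromosome 4 from 97772734 to 98118874, plus strand) had 1119.6, 710.1, 904 and 1031 normalized counts after vehicle and 771, 1010.0, 1044 and 1039.6 after corticosterone. *Nfib* (ENSMUSG00000008575, chromosome 4 from 82290173 to 82705750, minus strand) had 2757, 2473, 2335 and 2888 after vehicle and 2265, 3069, 2817 and 2956 after corticosterone. In both genes corticosterone mouse 5 was the lowest of its group, the reverse of its place in *Sox2*, *Sox9* and *Sall1*. The log2 fold change of *Nfia* was 0.04 (95% interval -0.25 to 0.33, adjusted p = 0.926 from edgeR; exact permutation p = 0.743). That of *Nfib* was 0.09 (95% interval -0.13 to 0.30, adjusted p = 0.737 from edgeR; exact permutation p = 0.543).

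Base composition was compared beside the differences. The longest GENCODE transcript had 49.3% to 51.6% GC in *Sox2*, *Sox9*, *Sall1* and *Nr2e1*, 58.3% in *Sox21* and 56.9% in *Sox1*, 54.2% in *Sox8*, 49.3% in *Pax6*, 42.7% in *Nfia* and 43.3% in *Nfib*. After correction of every library for its relation to GC content and transcript length, the log2 fold changes of the first 4 were between -0.71 and -0.53. That of *Sox21* became -0.39 and that of *Sox1* -0.09, while those of *Pax6* and *Sox8* were -0.22 and 0.10. The 2 nuclear factor I genes changed sign, to -0.08 for *Nfia* and -0.03 for *Nfib*. The share of ambiguous reads was 1.40% to 1.67% in vehicle and 1.25% to 1.48% in corticosterone libraries (exact permutation test, two-sided p = 0.0571). It thus moved in part with the treatment, and a covariate for it cannot be fully separated from the group. With this covariate the log2 fold changes were -0.28 for *Sox2*, -0.40 for *Sox9*, -0.30 for *Sall1*, -0.95 for *Nr2e1*, -0.57 for *Sox21*, -0.19 for *Sox1*, -0.03 for *Pax6*, 0.54 for *Sox8*, -0.33 for *Nfia* and -0.25 for *Nfib*. The order of the genes by size of difference was thus not the same under this setting.

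**Figure D3:**
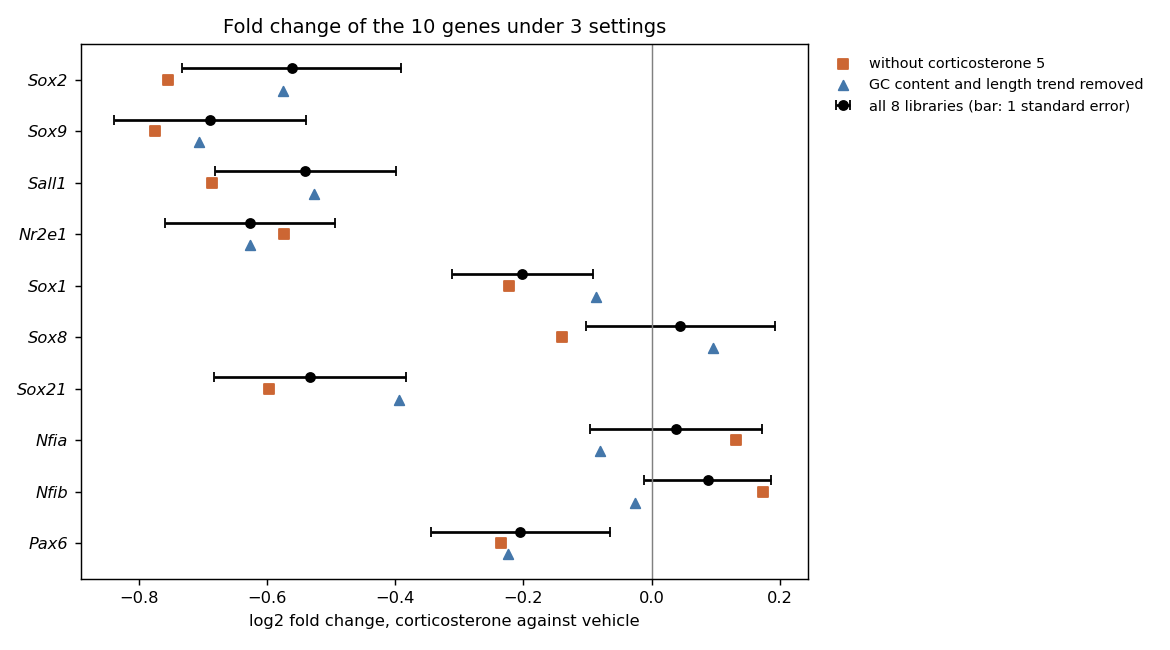
Log2 fold change of corticosterone against vehicle (horizontal axis) for the 10 genes from edgeR with all 8 libraries (circles, bars of 1 standard error), without corticosterone 5 (squares) and with the GC content and length trend removed (triangles). *Sox2*, *Sox9*, *Sall1*, *Nr2e1* and *Sox21* lie between -0.77 and -0.39 under all 3 settings.

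The long noncoding RNAs that span 2 of the SOX genes were examined beside them. *Sox2ot*, a transcript whose span on the same strand contains *Sox2*, shares 0 exon bases with it. It had 451, 344, 329 and 350.5 normalized counts after vehicle and 286, 270.1, 235 and 332 after corticosterone, a log2 fold change of -0.39 (adjusted p = 0.475 from edgeR). Within the vehicle group, mouse 1 was the highest for *Sox2ot* and the lowest for *Sox2*. *Sox1ot*, which likewise spans *Sox1*, averaged 453 ± 33.6 and 404 ± 30.8, with a log2 fold change of -0.16 (adjusted p = 0.558).

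Other members of the same families came from lists written from background knowledge. Among the other *Sox* genes, 11 of 15 were tested, 0 passed the threshold in edgeR, and 2 had an unadjusted p value under 0.05, both lower (4.52% of all genes tested were lower at this level). DESeq2 called 1 of them, *Sox10*, where it called 0.119% of all genes lower. The median log2 fold change was -0.22, where that of all genes tested was 0.00 (0.0036). With the GC content and length trend removed, the list median was -0.07. *Sox10*, a master regulator of oligodendrocytes, had 675 ± 108 normalized counts after vehicle and 393 ± 142 after corticosterone, with a log2 fold change of -0.78 (adjusted p = 0.313 from edgeR) and overlapping groups. Without corticosterone 5 it was called, with a log2 fold change of -1.05 (adjusted p = 0.00542), and was the only *Sox* gene of this list that was, where 6.47% of all genes were called lower. *Sox12* had 366 ± 23.9 and 314 ± 32.8 (log2 fold change -0.22, adjusted p = 0.545, and -0.04 with the GC content and length trend removed). *Sox4* had 245 ± 10.96 and 213 ± 15.5 (log2 fold change -0.20, adjusted p = 0.545 from edgeR). It was the only gene of the 11 tested whose groups did not overlap, which held in this direction for 1.68% of all genes tested. *Sox5* and *Sox6*, which act in glial precursors, had log2 fold changes of 0.08 and 0.01.

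Among the paralogs of *Sall1*, *Nr2e1*, *Pax6* and the nuclear factor I genes, 8 of 17 were tested. None passed the threshold in edgeR or DESeq2, and 4 had an unadjusted p value under 0.05, all lower (4.52% of all genes tested were lower at this level). They were *Nfix* (5055 ± 428 to 4231 ± 359 normalized counts, log2 fold change -0.26), *Nfic* (1493 ± 124 to 1214 ± 139, -0.30), *Nr2f1* (1459 ± 79.1 to 1239 ± 62.4, -0.24) and *Sall2* (log2 fold change -0.27), with adjusted p values of at least 0.418. *Sall2* and, below, *Nr2f6* and *Smad1* were named after their values were seen. Before correction, *Nfix* and *Nfic* thus lay on the other side of 0 from *Nfia* and *Nfib*, a difference that was not tested. The transcripts of *Nfix* and *Nfic* have 57.1% and 57.4% GC. With the GC content and length trend removed, the log2 fold changes became -0.14 for *Nfix*, -0.18 for *Nfic*, -0.05 for *Nr2f1* and -0.22 for *Sall2*. Those of *Nfia* and *Nfib* were then -0.08 and -0.03, on the same side of 0 as *Nfix* and *Nfic*. The list median went from -0.26 to -0.11. Without corticosterone 5, 5 of the 8 were called lower (*Nfix*, *Nfic*, *Nr2f1*, *Sall2* and *Nr2f6*), where 6.47% of all genes were.

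The list of other astroglial and radial glial regulators held 30 genes, of which 28 were tested, 0 were called in edgeR and in DESeq2, and 7 were lower and 1 higher at an unadjusted p value under 0.05 (4.52% and 4.51% of all genes tested). The median log2 fold change was -0.19, and -0.16 with the GC content and length trend removed. Without corticosterone 5, 6 of the 28 were called lower, where 6.47% of all genes were, and among them were *Rorb* (adjusted p = 0.0321 from edgeR) and *Hopx* (adjusted p = 0.0218). The gene with the smallest p value was *Rorb*, an orphan nuclear receptor, with 242 ± 27.4 normalized counts after vehicle and 177 ± 8.24 after corticosterone (log2 fold change -0.45, adjusted p = 0.288 from edgeR, no overlap). *Hopx*, a homeodomain gene of quiescent stem cells and astrocytes, had 1363 ± 75.2 and 1153 ± 105 (log2 fold change -0.24, adjusted p = 0.468). *Stat3*, a mediator of astrocyte differentiation, had 831 ± 34.2 and 728 ± 37.1 with no overlap (log2 fold change -0.19, adjusted p = 0.51). In the other direction, *Smad1*, which transmits bone morphogenetic protein signals, had 360.2 ± 28.01 and 423 ± 32.1 with no overlap (log2 fold change 0.23, adjusted p = 0.532). *Zbtb20* and *Id2*, the most abundant genes of the list with *Lhx2*, had log2 fold changes of 0.15 and -0.01, and *Lhx2* had -0.15. With the GC content and length trend removed, these were 0.0014 for *Zbtb20*, -0.09 for *Id2* and -0.0058 for *Lhx2*.

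Of 20 neural stem cell and radial glia markers, all tested, 0 were called in edgeR and in DESeq2, 2 were lower and 1 higher at an unadjusted p value under 0.05 (4.52% and 4.51% of all genes), and the median log2 fold change was 0.02. *Notch1*, a receptor that maintains stem cells, had 469 ± 54.3 and 342 ± 80.9 normalized counts (log2 fold change -0.46, adjusted p = 0.451 from edgeR), and without corticosterone 5 its log2 fold change was -0.64 (adjusted p = 0.0108). *Vim*, an intermediate filament gene, had 614 ± 84.7 and 729 ± 42.9 (0.25, adjusted p = 0.532), and *Gfap*, the filament gene of astrocytes and radial glia, had 6694 ± 838 and 6145 ± 516 (-0.12, adjusted p = 0.628). Of 13 genes of neuronal progenitors and neuroblasts, 12 were tested, 0 were called, 0 had an unadjusted p value under 0.05, and the median was 0.03.

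**Figure D4:**
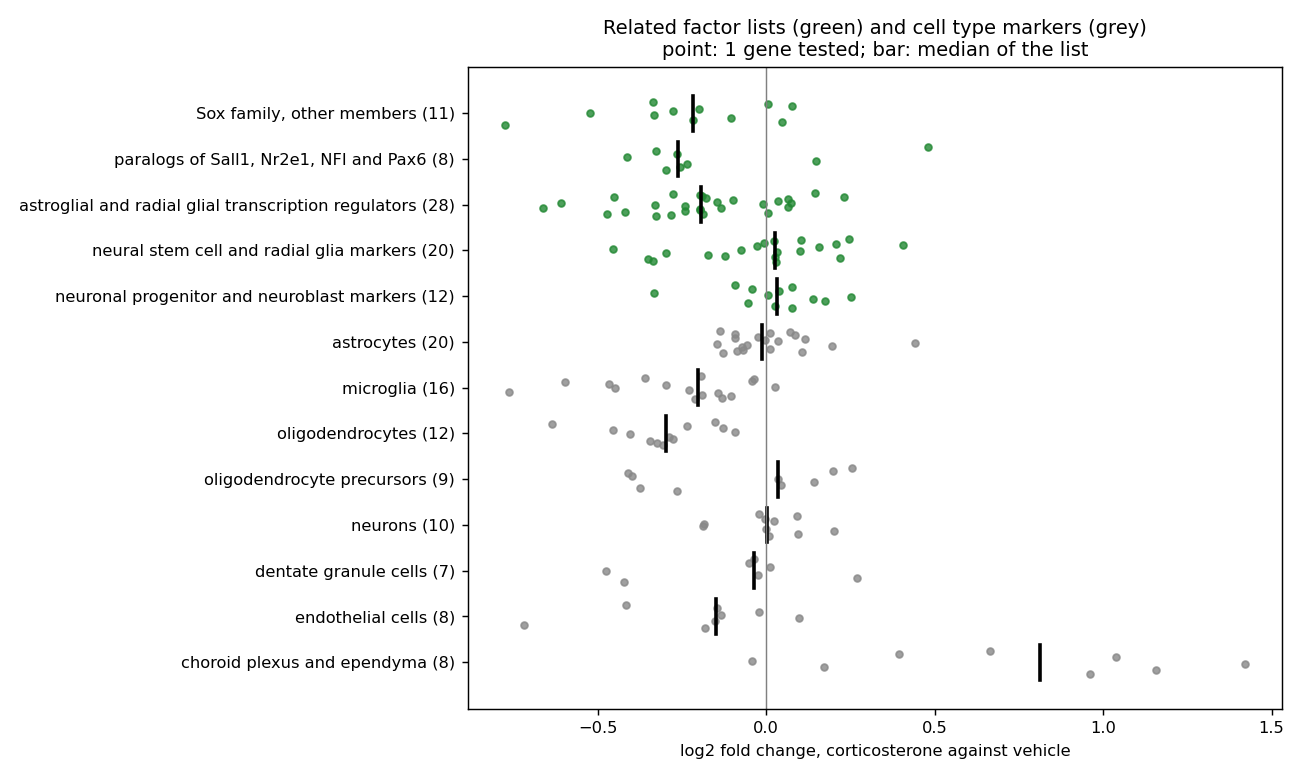
Log2 fold change of corticosterone against vehicle (horizontal axis) of each gene tested in 5 lists of related factors or progenitor markers (green) and 8 lists of cell type markers (grey), with the number tested in parentheses and the median as a black bar. Medians of other *Sox* genes, paralogs and astroglial regulators lie between -0.26 and -0.19 (between -0.16 and -0.07 with the GC content and length trend removed), and those of stem cell and astrocyte markers at 0.02 and -0.01.

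For astrocytes, 11 of 20 markers had a log2 fold change under 0, as did 49.3% of all genes tested, and the median was -0.01. None was called in edgeR, and 1 was called higher in DESeq2 (*Gjb6*), which called 0.256% of its genes higher. At an unadjusted p value under 0.05, 2 were lower and 1 higher (4.52% and 4.51% of all genes). The summed level of this list was 7810 to 8621 CPM in vehicle mice and 7950 to 8362 CPM in corticosterone mice, and none of its genes was at 0. *Slc1a2* and *Slc1a3*, the glutamate transporters of astrocytes, had log2 fold changes of 0.01 and -0.01. *Gja1*, a connexin gene, had 3549 ± 154 and 3204 ± 95.1 normalized counts (-0.15, adjusted p = 0.545 from edgeR), while *Gjb6*, another connexin gene, had 1376 ± 165 and 1866 ± 46.3 (0.44, adjusted p = 0.196, and 0.0137 without corticosterone 5), both without overlap. Set against the summed astrocyte markers of the same library, *Sox9* had 2.62 ± 0.637 CPM per 1000 CPM of markers after vehicle and 1.62 ± 0.19 after corticosterone. *Nr2e1* had 1.95 ± 0.318 and 1.28 ± 0.148, and for both genes all corticosterone mice lay below all vehicle mice. Both genes were chosen for being lower and the summed markers were nearly constant, so that these ratios restate the same difference. *Sox2* had 2.64 ± 0.546 and 1.79 ± 0.409, with mouse 5 again within the vehicle range.

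Microglial markers were examined beside *Sall1*. Of 16 markers, 15 had a log2 fold change under 0 (49.3% of all genes), with a median of -0.20. In edgeR, 0 of them passed the threshold. DESeq2 called 1 of them lower (*Cx3cr1*), where it called 0.119% of its genes lower. Before adjustment, 5 markers had a p value under 0.05 in edgeR, all lower (4.52% of all genes). The summed level was 587 to 611 CPM in vehicle mice and 475 to 599 CPM in corticosterone mice, with corticosterone 5 the highest of its group, and none of the genes was at 0. *Cx3cr1*, the fractalkine receptor gene, had 1159 ± 54.0 and 681 ± 163 normalized counts (log2 fold change -0.76, adjusted p = 0.186 from edgeR, and 0.00508 without corticosterone 5), and *P2ry12* had 634 ± 77.8 and 458 ± 71.1 (-0.47, adjusted p = 0.298, and 0.0389 without corticosterone 5), both without overlap. Per 1000 CPM of these markers, *Sall1* had 32.6 ± 1.61 after vehicle and 25.4 ± 3.73 after corticosterone, with all corticosterone mice below all vehicle mice, as in the counts on which *Sall1* was chosen. The part of microglial number or state in the *Sall1* values was not tested.

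**Figure D5:**
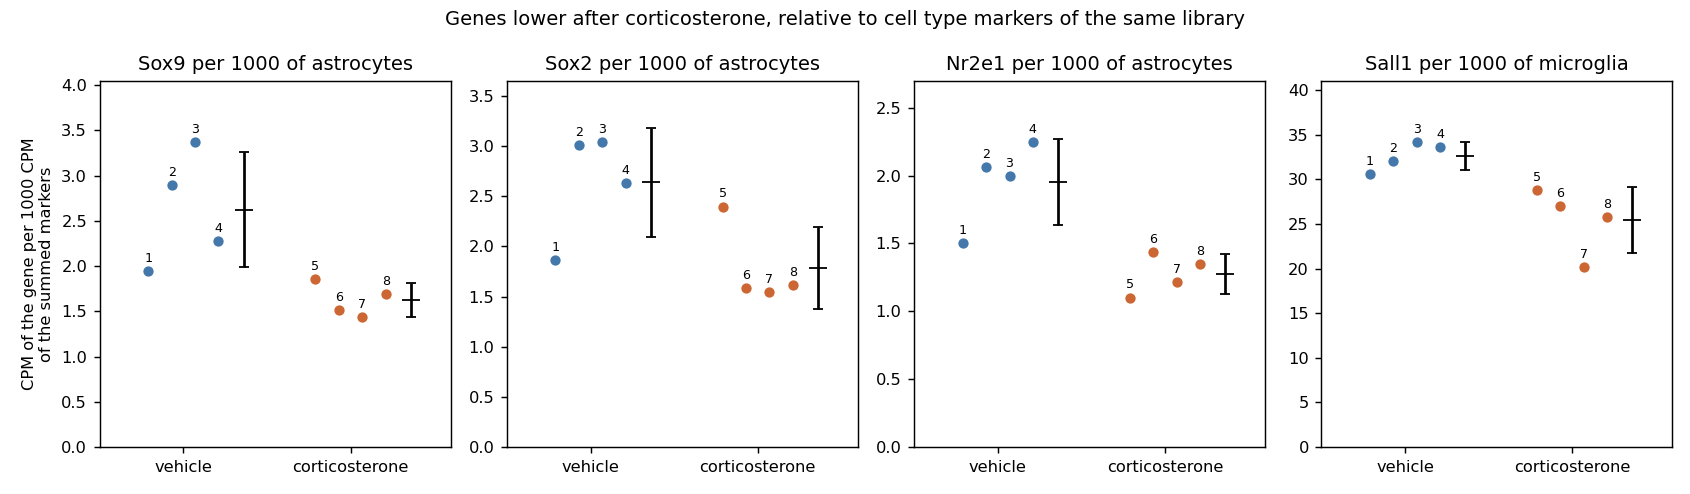
CPM of *Sox9*, *Sox2* and *Nr2e1* per 1000 CPM of summed astrocyte markers, and of *Sall1* per 1000 CPM of summed microglial markers (vertical axes from 0), in each mouse with the mean and SD of each group. *Sox9* has a mean of 2.62 after vehicle and 1.62 after corticosterone, and only *Sox2* shows overlap.

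Oligodendrocyte markers, relevant to *Sox8* and *Sox10*, had a log2 fold change under 0 in 12 of 12 genes (49.3% of all genes), with a median of -0.30 and a summed level of 3446 to 6070 CPM after vehicle and 3373 to 4147 CPM after corticosterone. Vehicle mouse 1 had the 6070 CPM, and the other vehicle mice had 3446 to 4481 CPM. Oligodendrocyte precursor markers had a median of 0.03 over 9 genes (326 to 442 and 327 to 421 CPM), and neuronal markers one of 0.00 over 10 genes (8879 to 9817 and 9252 to 9856 CPM; median 0.0025). Dentate granule cell markers, which include *Prox1*, had a median of -0.04 over 7 genes (308 to 396 and 292 to 393 CPM), which was 0.04 without corticosterone 5 and -0.15 with the GC content and length trend removed. Endothelial markers had a median of -0.15 over 8 genes (154 to 169 and 139 to 151 CPM), and of -0.09 without corticosterone 5. The choroid plexus and ependymal list had a median of 0.81 over 8 genes, and of 0.55 without corticosterone 5. Its summed level was 27.5 to 76.2 CPM and 38.9 to 83.6 CPM, with vehicle 1 and corticosterone 5 the highest of their groups. No gene of these marker lists was at 0 in all libraries, and 0 of them passed the threshold in edgeR or in DESeq2. At an unadjusted p value under 0.05 (4.52% of all genes lower and 4.51% higher) were 4 lower oligodendrocyte genes, 2 lower and 2 higher precursor genes, 1 lower neuronal gene, 2 lower and 1 higher dentate genes, 2 lower endothelial genes and 3 higher choroid plexus genes.

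Deviations of each mouse from its group mean, which do not use the difference between groups, were compared over 8 libraries as a description. Among 9942 genes with at least 200 reads on average, those most like *Sox2* were *Ephb3* (Pearson's r = 0.98, and 0.98 without corticosterone 5), *Mpped1*, *Adcy6*, *Sall2* and *Acss1* (0.97 or higher). Those most like *Sall1* were *Kat5*, *Nol4l*, *Inpp5e*, *Fads2* and *Zc3h7b* (r of 0.95 to 0.97), those most like *Sox9* were *Suox*, *Mtmr3*, *Txnrd1*, *Sstr4* and *Prpf6* (0.95 to 0.97), and *Polr2m*, *Rab3c* and *Mrps15* were among those most like *Nr2e1* (0.96 to 0.99). Without corticosterone 5, r of the same genes was 0.94 to 0.99 for *Sox2*, 0.90 to 0.97 for *Sall1*, 0.95 to 0.99 for *Sox9* and 0.96 to 0.99 for *Nr2e1*. All points share the same 8 libraries, and the highest of 9942 values is high by selection.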

How the data were processed

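RNA-seq of whole ventral hippocampus was measured in 8 mice, 4 per group. Reads were aligned by the authors to mm10 with GSnap 2017-09-11 and counted per gene with HTSeq-count 0.6.0, and the deposited table holds raw counts. Annotation release and strand setting of the counting are not given in the sources used here. The 5 rows of HTSeq-count that name no gene (13.7% to 15.4% of all reads) were kept out of library sizes, and 0 columns were left out. Of 50686 identifiers, 50462 were found in GENCODE M21.

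Counts were normalized with TMM and tested with the quasi-likelihood test of edgeR 4.0.16 under R 4.3.3 after filterByExpr, and p values were adjusted by Benjamini-Hochberg (threshold 0.05). Exact permutation tests used log2 CPM (prior count 2) over 70 assignments and were two-sided. Intervals are 95% intervals from the fit. Labels do not say whether libraries were handled as batches. The members and the gene lists were chosen with earlier results of these data known. Named genes were the members, *Fkbp5*, overlapping transcripts, the 5 genes most like each of 4 members, and from each list the 3 most abundant and the 3 with the smallest p values. Some genes that this rule names are not reported here. Alternatives were DESeq2 1.42.0, limma-voom (limma 3.58.1), other size factors and filters, removal of the GC content and length trend (splines with 5 degrees of freedom), the ambiguous share as a covariate, and each library left out. On simulated counts (15830 genes tested), edgeR recovered 89% of the changes of 1 log2 unit and 58% of the changes of 0.5. Of the calls on these counts, 3.92% were false with edgeR and 10.3% with DESeq2. The simulation drew each gene independently and held no library that stood apart as corticosterone 5 does. These shares therefore cannot be carried over to the libraries here.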

Additional observations from a re-analysis of the deposited data

Results flagged for a closer look

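In groups of 4 mice, 84 sets of values were checked for 1 library far from the other 3, and 10 were found, where chance gives about 4.2. Corticosterone 5 stood apart in *Sox2* (384 normalized counts against 239.6 to 254), in *Nfia* (771 against 1010.0 to 1044), in *Nfix* (4766 against 3999.8 to 4099), in *Sall2* (1406 against 1109 to 1123), in *Notch1* (463 against 299 to 305) and in the share of ambiguous reads (1.48% against 1.25% to 1.28%). Vehicle 4 stood apart in *Rorb* (282 against 223 to 231), in *P2ry12* (749 against 585 to 610.2) and in the share of ambiguous reads (1.40% against 1.64% to 1.67%), and vehicle 3 in the share of reads not aligned (6.35% against 7.06% to 7.13%).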

How the results depend on the processing

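No paired analysis was possible because no replicate number occurs in both groups. *Sox1*, *Sox21* and *Pax6* had a negative log2 fold change in all 18 settings. With each mouse left out in turn, and with the sign of the first 4 genes set by their choice, it ranged from -0.75 to -0.49 for *Sox2*, from -0.80 to -0.56 for *Sox9*, from -0.69 to -0.41 for *Sall1*, from -0.73 to -0.53 for *Nr2e1*, from -0.64 to -0.46 for *Sox21*, from -0.26 to -0.14 for *Sox1*, from -0.29 to -0.13 for *Pax6* (the latter without corticosterone 8), from -0.14 to 0.14 for *Sox8* (-0.14 without corticosterone 5, -0.03 without vehicle 4), from -0.076 to 0.13 for *Nfia* (-0.076 without vehicle 2, -0.0016 without corticosterone 7, -0.0027 without corticosterone 8) and from 0.03 to 0.17 for *Nfib*. With the ambiguous share as a covariate, it was -0.28 for *Sox2*, -0.40 for *Sox9*, -0.30 for *Sall1*, -0.95 for *Nr2e1*, 0.54 for *Sox8*, -0.03 for *Pax6*, -0.33 for *Nfia* and -0.25 for *Nfib*, and with the GC content and length trend removed -0.080 for *Nfia* and -0.026 for *Nfib*. The adjusted p value of *Sox21* ranged from 0.0347 to 0.861 over the settings, and was under 0.05 only without corticosterone 5. The cause was not tested.

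The number of genes past the threshold was 1 (1 higher, 0 lower). It was 63 with DESeq2 (43 higher, 20 lower), 79 with no filter on low counts (49 higher and 30 lower), 0 (0 higher) when each library had to hold 10 counts, 21 with the GC content and length trend removed (13 higher, 8 lower) and 38 with the ambiguous share as a covariate (34 higher, 4 lower). With each mouse left out it ranged from 0 to 1651 (0 to 604 higher, 0 to 1047 lower), with 1651 without corticosterone 5 and 19 without vehicle 1. From 0 in each list, the number called became 1 in the other *Sox* genes, 1 in astrocyte and 1 in microglial markers with DESeq2. With no filter it became 1 in the other *Sox* genes, 1 in astrocyte, 2 in microglial, 1 in oligodendrocyte, 1 in dentate granule cell, 1 in endothelial and 1 in choroid plexus markers. With the trend removed it became 1 in astrocyte and 2 in microglial markers, and with the covariate 1 in microglial markers. With each mouse left out, it ranged from 0 to 1 in the other *Sox* genes, 0 to 5 in the paralogs, 0 to 6 in the astroglial regulators, 0 to 1 in stem cell markers, 0 to 2 in neuroblast markers, 0 to 2 in astrocyte, 0 to 6 in microglial, 0 to 3 in oligodendrocyte, 0 to 3 in precursor, 0 to 2 in dentate granule cell and 0 to 1 in endothelial markers, and 0 to 1 among the 6 related factors. All upper values were those without corticosterone 5. Of the list medians near 0, that of stem cell markers was -0.02 with the trend removed, that of precursor markers -0.04 without corticosterone 5 and that of neuronal markers -0.03 with the trend removed. At 78 to 155 reads per library, *Sox21* was the least counted gene of the set, with a standard error of 0.15 on the log2 scale where those of the 10 genes ran from 0.10 to 0.17.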
